A study of Mus musculus with 15 samples.

Results

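Laminin chains, nidogens and the basement membrane proteoglycans agrin and perlecan were followed in stretched and unstretched podocytes. The genes were chosen by name, with earlier results of these data known, and are 10 of the 55416 genes in the count table. The laminin chains are the alpha chains Lama2, Lama4 and Lama5, the beta chains Lamb1 and Lamb2 and the gamma chain Lamc1. The others are the nidogens Nid1 and Nid2, agrin (Agrn) and perlecan (Hspg2). The cells were SVI, a conditionally immortalised line of mouse podocytes (the epithelial cells around the glomerular capillaries), which were differentiated and seeded on flexible silicone membranes. Experiment 1 held 6 samples under low stretch (labelled with a membrane deflection of 5 to 6 mm) and 3 unstretched samples, and experiment 2 held 3 samples under high stretch (7 to 8 mm) and 3 unstretched samples. Comparisons were made within an experiment, stretched against unstretched, so amplitude and experiment are the same split and cannot be told apart. All samples come from 1 immortalised line, and no label says that samples are separate cultures, so p-values measure only the spread between these samples, which may be technical.

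A basement membrane is a thin sheet of extracellular matrix on which epithelial cells rest. Laminins are trimers of an alpha, a beta and a gamma chain that are secreted, polymerise into a network and are held at the cell by integrins and dystroglycan. Nidogens connect the laminin network to the collagen IV network, and agrin and perlecan are large core proteins with heparan sulphate chains that bind laminin or nidogen. In the glomerulus, podocytes and endothelial cells share 1 basement membrane, whose mature laminin is the trimer of the Lama5, Lamb2 and Lamc1 products. Inherited loss of LAMB2 causes Pierson syndrome, a congenital nephrotic disease, and agrin is the main heparan sulphate proteoglycan of the mature glomerular basement membrane.

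Promoters from RefSeq (GRCm38.p6) were held for 7 of the 10 genes, with none for Lama4, Lamc1 and Nid2. Those of Lama5 and Hspg2 are shown because the levels of these genes moved together across the samples, and those of Lamb1 and Agrn because these genes did not pass the test under either stretch. Each sequence is the 250 bases before the start site, 5′ to 3′ on the gene's strand, from chr2:180225860-180226109 (minus strand) for Lama5, chr4:137468553-137468802 (plus) for Hspg2, chr12:31265043-31265292 (plus) for Lamb1 and chr4:156197489-156197738 (minus) for the upstream of the 2 RefSeq starts of Agrn. Capitals mark a match on either strand to the GC box GGGCGG or, in Lamb1 only, also to the EGR and WT1 motif GCGGGGGCG, which overlaps a GC box there.
Lama5: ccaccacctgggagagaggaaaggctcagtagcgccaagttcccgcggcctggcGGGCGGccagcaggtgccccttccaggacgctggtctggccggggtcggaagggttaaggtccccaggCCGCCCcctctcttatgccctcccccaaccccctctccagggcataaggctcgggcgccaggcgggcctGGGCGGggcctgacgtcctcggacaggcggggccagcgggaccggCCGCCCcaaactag
Hspg2: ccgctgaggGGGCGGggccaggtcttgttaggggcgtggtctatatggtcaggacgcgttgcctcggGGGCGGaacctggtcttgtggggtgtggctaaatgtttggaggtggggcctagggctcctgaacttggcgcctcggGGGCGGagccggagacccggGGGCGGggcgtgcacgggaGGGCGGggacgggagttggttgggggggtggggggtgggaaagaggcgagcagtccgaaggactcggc
Lamb1: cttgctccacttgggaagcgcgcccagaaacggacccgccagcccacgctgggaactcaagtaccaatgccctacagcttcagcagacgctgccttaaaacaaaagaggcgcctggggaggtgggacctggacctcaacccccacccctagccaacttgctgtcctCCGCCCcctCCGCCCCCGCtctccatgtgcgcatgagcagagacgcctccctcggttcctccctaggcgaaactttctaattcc
Agrn: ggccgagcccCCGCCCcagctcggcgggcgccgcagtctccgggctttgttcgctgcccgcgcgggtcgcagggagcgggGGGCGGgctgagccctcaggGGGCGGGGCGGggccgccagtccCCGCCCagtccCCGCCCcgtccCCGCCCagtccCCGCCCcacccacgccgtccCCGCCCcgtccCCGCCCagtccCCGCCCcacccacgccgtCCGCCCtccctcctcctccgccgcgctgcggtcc
The GC box occurred 4 times before Lama5, 5 times before Hspg2, 2 times before Lamb1 and 12 times before Agrn, and 32.7% of the 32851 RefSeq promoters in the table held at least 1 in the same 250 bases. The EGR and WT1 motif, held by 2.57% of all promoters, also had 1 match before the downstream start of Agrn, which is not shown. Neither the TEAD motif GGAATG, held by 12.6% of all promoters, nor the AP-1 motif TGANTCA, held by 6.75%, had a match in these 4 windows. Among the other promoters, TEAD had 1 match before Nid1, and the GC box had none before Lama2 and Lamb2. GC content was 72.4% before Lama5, 70.0% before Hspg2, 62.0% before Lamb1 and 83.6% before Agrn, against a median of 52.4% over all promoters. The GC box was present both before genes that fell under low stretch and before genes that did not pass the test.

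Depth was high throughout, with 172.2 M to 396.7 M counts per sample, and whether a read pair counts as 1 or 2 is not given in the sources used here. Of 14 podocyte markers, 9 averaged at least 1 CPM (the usual library-size-scaled count, here on TMM-scaled library sizes) in the unstretched and low-stretch groups and 7 under high stretch, while Tcf21, Foxc2 and Ptpro were at or near 0 and Nphs1 averaged at most 0.683 CPM. Of 6 parietal epithelial markers 3 passed 1 CPM (summed level 308 to 610 CPM, mostly Pax2 and Pax8), of 7 tubular markers 2 (252 to 1094 CPM, mostly Lrp2), of 7 endothelial markers 1 (Ehd3, group means 32.9 to 74.6 CPM) and of 5 immune markers 1 (Cd68), with an immune sum of at most 2.23 CPM. The mesangial or fibroblast sum of 1270 to 10501 CPM was mostly Acta2, with 3 or 4 of its 9 markers above 1 CPM and Pdgfra and Lum near 0. Unstretched replicate 3 of experiment 2 stood apart from its group: its mitochondrial share was 2.596%, against 1.563% and 1.148%, and it was the highest of the 3 in Nid2, Lamc1 and Lamb1 and the lowest in Lama5, Lamb2, Agrn and Hspg2. Results that rest on it are given with and without it. The sample codes run in neighbouring sets (1 unstretched and 2 stretched samples in experiment 1, 1 of each in experiment 2), called runs here, and what the codes stand for is not given in the sources used here. In experiment 1 samples of the same run deviated from their group means together (mean correlation across genes 0.438 over 6 pairs), which is why values within runs are given as well.

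Under low stretch, the nidogen Nid2 and the laminin chains and proteoglycan Lama5, Lamc1 and Hspg2 fell, and none of the genes rose. Nid2 fell 3.88-fold, whereas the other 3 fell by factors of 1.48 to 1.54. Of the 10 genes, 9 passed the filter on low counts, and 4 of these 9 were lower at an adjusted p under 0.05, against 3.6% of all 21672 genes that were called lower and 5.45% called in either direction. The median log2 fold change of the 9 was -0.31, against 0.01 over all genes. For these 4 of 9 the ranges of the groups did not overlap, against 15.3% of all genes (7.47% with lower stretched values). Under high stretch only Nid2 passed the test, 1 of 9 tested, against 2.16% of 18524 genes called lower and 3.47% in either direction. Lama5, Lamc1 and Hspg2 had log2 fold changes of -0.50, -0.55 and -0.50 there. These 3 and Nid2 did not overlap between the groups under high stretch either, against 20.6% of all genes (10.7% with lower stretched values). In bulk samples such as these, fewer cells of a type and less RNA per cell cannot be told apart.

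**Figure D1:**
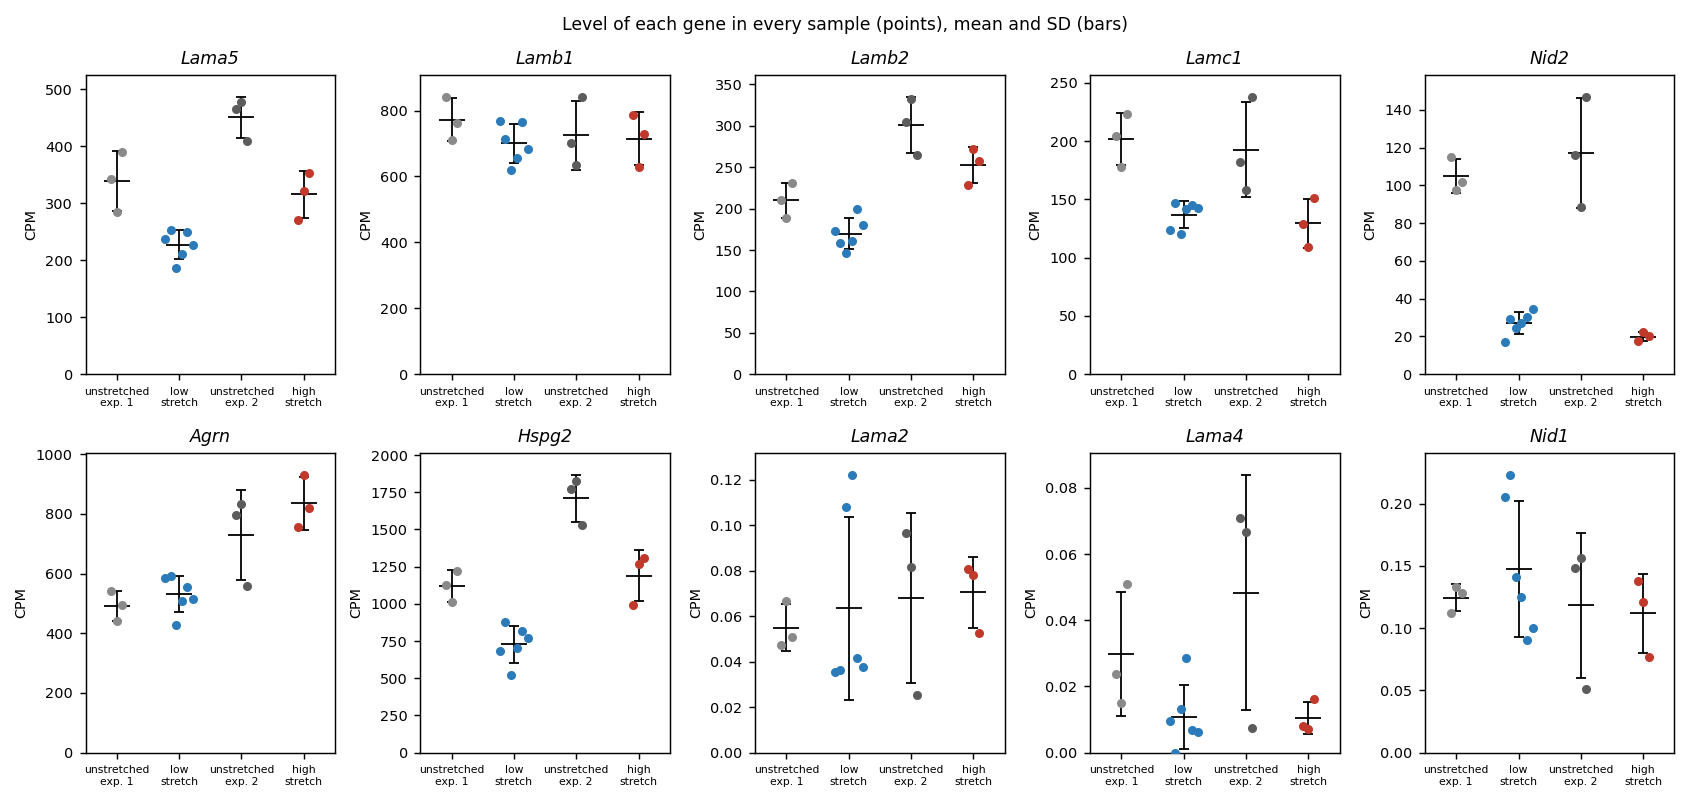
Level in CPM of the 10 genes in every sample (points) by group, with the mean and SD as bars, each panel on its own linear axis from 0. Nid2 sits between 17.2 and 34.8 CPM in the stretched samples and between 88.4 and 147 CPM in the unstretched ones, and Lama2, Lama4 and Nid1 stay under 0.25 CPM.

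Lama5 (ENSMUSG00000015647, chromosome 2) encodes the alpha chain of the mature glomerular laminin. Under low stretch its levels were 238, 253, 186, 210, 249 and 226 CPM in replicates 1 to 6, and 342, 285 and 390 CPM in the unstretched samples. Every low-stretch sample was below every unstretched one. From 339 ± 52.5 CPM (SD, n = 3) it fell to 227 ± 25.6 CPM (SD, n = 6), by 0.58 on the log2 scale (SE 0.11, edgeR adjusted p = 0.0162). The call was lost without unstretched replicate 1 (adjusted p = 0.0683) and without unstretched replicate 3 (adjusted p = 0.101), and the adjusted p ranged from 0.000135 to 0.148 over all alternatives. In experiment 2 the levels were 271, 322 and 353 CPM under high stretch and 465, 477 and 409 CPM unstretched. These groups did not overlap, but the log2 fold change of -0.50 (SE 0.17) did not pass (edgeR adjusted p = 0.208, and 0.0777 without unstretched replicate 3).

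Lamc1 (ENSMUSG00000026478, chromosome 1), the gamma chain common to most laminins, had 124, 147, 120, 142, 145 and 143 CPM under low stretch and 204, 178 and 223 CPM in the unstretched samples. The highest low-stretch sample was below the lowest unstretched one. With means of 137 ± 11.9 CPM (SD, n = 6) and 202 ± 22.5 CPM (SD, n = 3), Lamc1 fell by 0.56 on the log2 scale (SE 0.09, edgeR adjusted p = 0.00776), and without unstretched replicate 3 the adjusted p was 0.0513. Under high stretch it had 129, 109 and 151 CPM against 182, 158 and 238 CPM unstretched, again without overlap. The log2 fold change of -0.55 (SE 0.22) was close to that under low stretch and did not pass (edgeR adjusted p = 0.288, and 0.306 without unstretched replicate 3).

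Neither beta chain passed the test in either experiment. Lamb2 (ENSMUSG00000052911, chromosome 9), the beta chain of the mature glomerular laminin, had 173, 159, 146, 161, 199 and 180 CPM under low stretch and 210, 189 and 231 CPM unstretched. Low-stretch replicate 5 overlapped the unstretched range. The log2 fold change was -0.31 (SE 0.09, edgeR adjusted p = 0.0803), and it passed with run as a block (adjusted p = 0.00191), with DESeq2 (adjusted p = 0.0423) and without low-stretch replicate 5 (adjusted p = 0.037), within a range of 0.00191 to 0.339 over all alternatives. With run as a block 28.2% of all genes were called and with DESeq2 13.1%, and 5 of the 9 genes with each. Under high stretch Lamb2 had 229, 272 and 258 CPM against 305, 333 and 265 CPM, with overlap and a log2 fold change of -0.23 (SE 0.17, edgeR adjusted p = 0.66).

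Lamb1 (ENSMUSG00000002900, chromosome 12), the beta chain of embryonic and many other basement membranes, did not pass in either experiment. Its levels were 767, 714, 620, 656, 766 and 684 CPM under low stretch against 842, 712 and 763 CPM, and 787, 628 and 728 CPM under high stretch against 703, 634 and 840 CPM. Both pairs of groups overlapped. The log2 fold changes were -0.15 (SE 0.09, edgeR adjusted p = 0.35) under low and -0.00 (SE 0.20, adjusted p = 0.996) under high stretch.

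The alpha chains Lama2 (ENSMUSG00000019899, chromosome 10), the alpha chain of muscle and nerve laminin, and Lama4 (ENSMUSG00000019846, chromosome 10), found in vessels, were barely detected. Lama2 had 7 to 34 counts per sample and Lama4 0 to 16. The single 0, Lama4 in low-stretch replicate 2, allows a level of up to 0.00682 CPM when 3 counts are taken as the limit for counting error only. Lama2 did not pass under low (log2 fold change 0.18, SE 0.48, edgeR adjusted p = 0.848) or high stretch (0.14, SE 0.54, adjusted p = 0.962), and Lama4 was left out of both tests by the filter on low counts. The highest low-stretch Lama2 values, 0.108 and 0.122 CPM in replicates 3 and 4, were both from the second run, and the other 4 samples had 0.0352 to 0.0417 CPM.

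Nid2 (ENSMUSG00000021806, chromosome 14), which links laminin to collagen IV, had the lowest log2 fold change of the 9 tested genes in both experiments. Under low stretch its levels were 17.2, 29.0, 24.7, 27.1, 30.1 and 34.8 CPM, and in the unstretched samples 115, 97.5 and 102 CPM. The groups were far apart, and the means of 27.1 ± 5.95 CPM (SD, n = 6) and 105 ± 9.03 CPM (SD, n = 3) differed by -1.95 on the log2 scale (SE 0.17, edgeR adjusted p = 0.00118). Its call held in each of the 9 fits that left out 1 sample, with adjusted p from 0.000229 to 0.00661. Under high stretch it had 17.4, 22.2 and 20.0 CPM against 116, 88.4 and 147 CPM. From 117 ± 29.1 CPM it fell to 19.9 ± 2.39 CPM (SD, n = 3 each), 5.83-fold lower, which is -2.54 on the log2 scale (SE 0.23, edgeR adjusted p = 0.00389, and 0.000159 without unstretched replicate 3). This call was lost without high-stretch replicate 3 (adjusted p = 0.0529), a fit in which 14 genes were called in all.

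Exons of Nid2 overlap exons of Rtraf, a gene of RNA transcription and transport on the opposite strand (GENCODE M21), and the strand setting of the authors' counting is not given in the sources used here. Rtraf, with a mean of 83.6 CPM over all samples, had log2 fold changes of -0.23 (SE 0.10, edgeR adjusted p = 0.195) under low and -0.17 (SE 0.15, adjusted p = 0.744) under high stretch, much smaller than those of Nid2. The main coding transcript of Nid2, ENSMUST00000022340, had 9.60 ± 2.26 TPM (a length-scaled transcript abundance; SD, n = 6) under low stretch against 40.8 ± 4.65 TPM (SD, n = 3), and 4.30 to 4.94 TPM under high stretch against 17.8 to 49.1 TPM. The transcript values were thus lower in the same groups as the counts. How far reads of Rtraf enter the Nid2 counts was not tested.

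Nid1 (ENSMUSG00000005397, chromosome 13), the other nidogen, was barely detected, with 14 to 98 counts per sample. It had 0.0904 to 0.223 CPM under low stretch against 0.112 to 0.133 CPM, and 0.0766 to 0.138 CPM under high stretch against 0.051 to 0.156 CPM, and did not pass under low (log2 fold change 0.25, SE 0.31, edgeR adjusted p = 0.661) or high stretch (-0.01, SE 0.50, adjusted p = 0.995). Nid2 made up at least 99.1% of the nidogen level per length (CPM divided by kilobases of the longest transcript) in every sample.

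Of the proteoglycans, perlecan fell under low stretch and agrin did not pass under either stretch. Hspg2 (ENSMUSG00000028763, chromosome 4), the perlecan core protein, had 680, 875, 523, 702, 816 and 772 CPM under low stretch and 1124, 1012 and 1222 CPM unstretched. No low-stretch sample reached the unstretched range. The means were 728 ± 124 CPM (SD, n = 6) and 1119 ± 105 CPM (SD, n = 3), and the log2 fold change was -0.63 (SE 0.14, edgeR adjusted p = 0.0283). Of the 4 calls this one rested most on single samples: it held in 4 of the 9 fits that left out a sample and was lost without low-stretch replicate 1 (adjusted p = 0.0548) or 4 (0.0621) and without unstretched replicate 1 (0.0999), 2 (0.0504) or 3 (0.146). A correction for GC content also ended it (adjusted p = 0.0535). With run as a block, where 28.2% of all genes were called, Hspg2 kept its call (edgeR adjusted p = 0.00121). Under high stretch Hspg2 had 995, 1269 and 1307 CPM against 1775, 1823 and 1531 CPM, without overlap and with a log2 fold change of -0.50 (SE 0.18, edgeR adjusted p = 0.236, and 0.0724 without unstretched replicate 3).

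Agrn (ENSMUSG00000041936, chromosome 4), whose protein also clusters acetylcholine receptors at the neuromuscular junction, had 585, 590, 429, 508, 556 and 514 CPM under low stretch against 541, 441 and 494 CPM, and 756, 930 and 818 CPM under high stretch against 797, 833 and 557 CPM. The groups overlapped in both experiments. Its log2 fold change was 0.10 (SE 0.11, edgeR adjusted p = 0.593) under low and 0.22 (SE 0.20, adjusted p = 0.776) under high stretch.

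Differences were also taken within runs, each stretched sample against the unstretched sample of its run. The 6 differences of experiment 1 share 3 unstretched samples. In experiment 2 the runs are the same-numbered pairs, whose samples did not all deviate together (correlations -0.163 to 0.45). The log2 difference of Nid2 ranged from -2.74 to -1.55 under low and from -2.87 to -1.99 under high stretch. The ranges were -0.79 to -0.44 and -0.78 to -0.21 for Lama5, -0.72 to -0.33 and -0.65 to -0.50 for Lamc1, and -0.95 to -0.36 and -0.83 to -0.23 for Hspg2. For these 4 genes the groups do not overlap, so negative signs follow from that and add no support. Lamb2, whose groups overlap, had -0.40 to -0.22 under low and -0.41 to -0.04 under high stretch. The other genes had differences of both signs: Lamb1 was negative in 5 of 6 and 2 of 3 cases, Agrn positive in 5 of 6 and 2 of 3, Lama2 negative in 4 of 6 and 2 of 3, and Nid1 negative in 3 of 6 and 2 of 3.

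**Figure D2:**
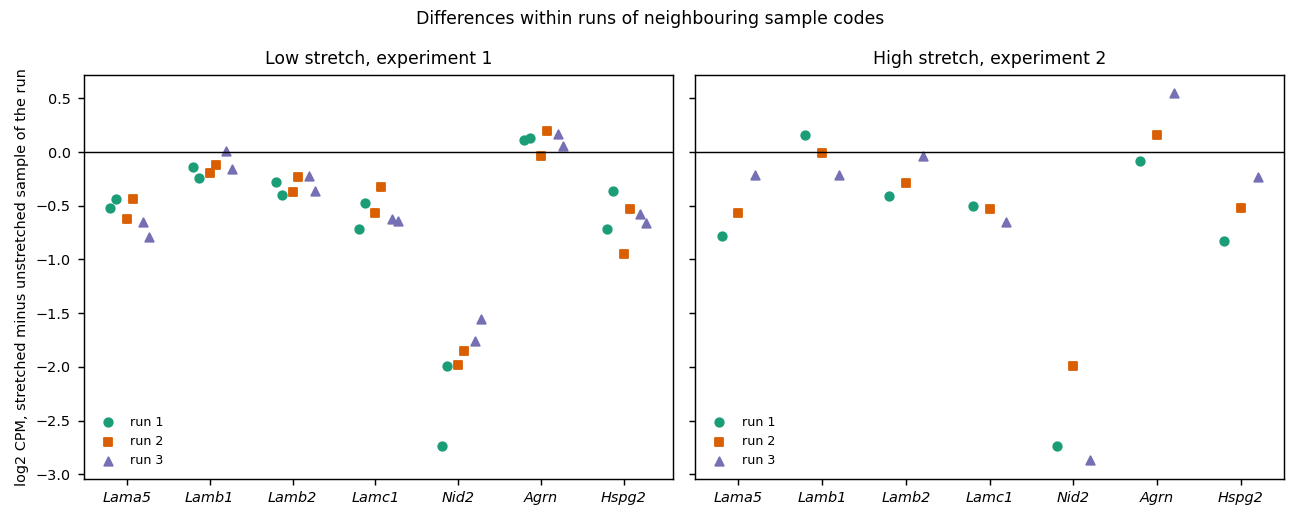
Difference in log2 CPM between each stretched sample and the unstretched sample of its run (points, coloured by run) for the 7 genes above 1 CPM, in experiment 1 (left, 6 differences per gene) and experiment 2 (right, 3 per gene). All points of Lama5, Lamb2, Lamc1, Nid2 and Hspg2 lie below 0, and those of Lamb1 and Agrn lie on both sides.

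The high-stretch and low-stretch effects were compared directly in a fit over all 15 samples. None of the 10 genes passed (0 of 10, also at an unadjusted p under 0.05), and neither did any of the 22015 genes tested (0.0%) by edgeR or by DESeq2, although 3 genes (0.0136%) passed with run as a block and 547 genes (2.48%) had an unadjusted p under 0.05. The effect on Nid2 differed by -0.61 on the log2 scale (SE 0.29, edgeR unadjusted p = 0.0513, adjusted p = 1.0). For Lama5, Lamc1 and Hspg2 the effects differed by 0.07 (SE 0.20), -0.01 (SE 0.22) and 0.10 (SE 0.23). That Lama5, Lamc1 and Hspg2 passed under low stretch only is therefore not shown to be a difference between the amplitudes.

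**Figure D3:**
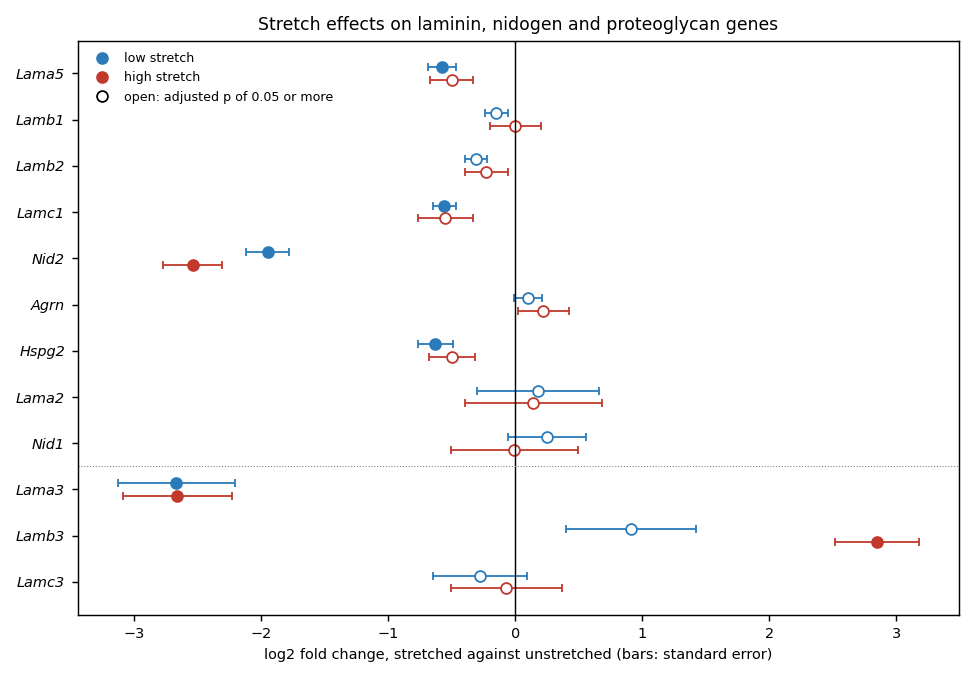
Log2 fold change of stretched against unstretched samples with its standard error, for the 9 genes tested and, below the dotted line, 3 other laminin chains (filled points: adjusted p under 0.05). Estimates for low and high stretch lie close together for Lama5, Lamc1 and Hspg2, and Nid2 lies at -1.95 and -2.54.

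Levels of different genes were set side by side only per length. In the unstretched samples of experiment 1 the order by CPM per kilobase was Lamb1 (134 ± 11.4, SD, n = 3), Hspg2 (78.9 ± 7.41), Agrn (57.1 ± 5.81), Lamb2 (37.3 ± 3.71), Lama5 (29.8 ± 4.61), Lamc1 (26.4 ± 2.95) and Nid2 (21.5 ± 1.85). The ranges of neighbours overlapped from Lamb2 downwards and were separate above it. In the unstretched samples of experiment 2 the order by CPM per kilobase was the same, with Lamb1 (110 to 145) and Hspg2 (108 to 128) overlapping. Under low stretch the mean of Agrn, 61.6 ± 7.02 (SD, n = 6), stood above that of Hspg2, 51.3 ± 8.71, with overlapping ranges, and under high stretch Agrn had 87.8 to 108 and Hspg2 70.2 to 92.1, also overlapping. Nid2, at 5.57 ± 1.22 under low and 4.08 ± 0.489 under high stretch, lay below Lamc1, at 17.9 ± 1.56 and 17.0 ± 2.75, without overlap. The order depends on the measure. Summed over all transcripts, the mean TPM in unstretched experiment 1 was 180 for Lamb1, 157 for Agrn, 152 for Hspg2 and 132 for Lamb2, and in unstretched experiment 2 it was 152 for Hspg2, 143 for Agrn, 120 for Lamb2 and 119 for Lamb1. Over coding transcripts of at least 2 kb, Hspg2 stood above Agrn in both, at 147 against 121 and 149 against 124. By TPM over all transcripts Nid2 and Lamc1 were also close, at 51.3 and 51.2 in experiment 1 and 37.6 and 34.3 in experiment 2.

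Agrn made up 58.7%, 52.6%, 57.5%, 54.4%, 52.9% and 52.3% of the summed Agrn and Hspg2 level per length under low stretch, and 44.2%, 41.8% and 40.0% in the unstretched samples. Its share under high stretch was 55.6%, 54.7% and 50.8%, against 42.5%, 43.0% and 37.5%. In both experiments every stretched sample had a higher agrin share than every unstretched one. The mean share was 54.7% ± 2.71 (SD, n = 6) against 42.0% ± 2.13 (SD, n = 3) under low and 53.7% ± 2.57 against 41.0% ± 3.04 (SD, n = 3 each) under high stretch. Summed transcript TPM gave 63.5% against 50.7% and 61.5% against 48.6%, and coding transcripts of at least 2 kb gave 58.0% against 45.2% and 57.9% against 45.5%. The share is a description of unequal levels of both genes and was not tested.

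Among alpha chains Lama5 made up at least 97.9% of the level per length in every sample. The beta chains were mixed: Lamb2 held 19.9% ± 1.12 (SD, n = 6) under low stretch against 21.9% ± 1.72 (SD, n = 3), and 26.8% ± 3.86 under high stretch against 30.1% ± 5.32 (SD, n = 3 each). These ranges overlapped. The Lamb2 share was higher by TPM over all its transcripts, 40.3% under low stretch against 42.2% and 46.1% under high stretch against 50.9%. Over coding transcripts of at least 2 kb it was 26.9% against 28.1% and 34.8% against 36.7%.

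**Figure D4:**
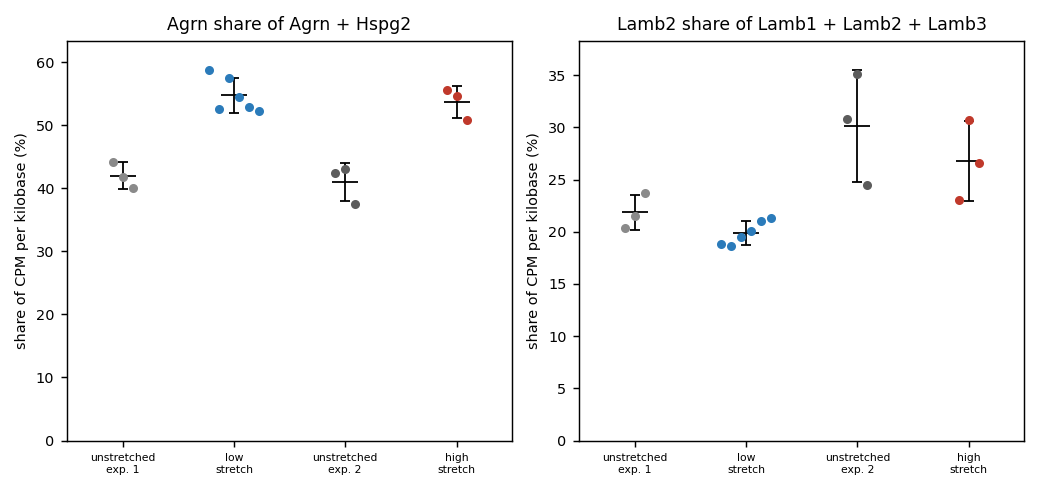
Share of agrin in the summed agrin and perlecan level (left) and of Lamb2 in the summed beta chain level (right), in percent of CPM per kilobase, for every sample (points) with the mean and SD as bars. The agrin share is above 50% in all stretched samples and below 45% in all unstretched ones, and the Lamb2 shares overlap between stretched and unstretched samples.

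Other laminin chains, among them Lama3 and Lamb3 of the laminin of skin and other epithelia, were at low levels. Lama3 (chromosome 18) had 0.284 to 1.37 CPM (median 0.532) under low stretch and 3.29, 2.27 and 7.70 CPM unstretched, without overlap. It fell by 2.67 on the log2 scale (SE 0.46, edgeR adjusted p = 0.0104) and, without unstretched replicate 3, had a log2 fold change of -2.02 that did not pass (adjusted p = 0.0659). Under high stretch it had 0.473, 0.262 and 0.528 CPM against 2.60, 1.56 and 3.97 CPM and fell by 2.66 (SE 0.43, edgeR adjusted p = 0.0187). That call was lost without any 1 of the 3 high-stretch samples or unstretched replicate 1 (adjusted p from 0.054 to 0.103).

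Lamb3 (chromosome 1) went the other way. Under high stretch it rose from 0.116, 0.126 and 0.0874 CPM to 0.554, 0.844 and 0.940 CPM, a log2 fold change of 2.85 (SE 0.33, edgeR adjusted p = 0.00641, and 0.0609 without high-stretch replicate 3). Under low stretch it had 0.0591 to 0.259 CPM (median 0.142) against 0.103, 0.0695 and 0.0574 CPM, with overlap (log2 fold change 0.91, SE 0.51, adjusted p = 0.309). The difference between the effects was 1.93 (SE 0.66, unadjusted p = 0.0102, adjusted p = 1.0) and did not pass. Lamc3 passed in neither experiment (log2 fold change -0.28, SE 0.37, edgeR adjusted p = 0.68 under low and -0.07, SE 0.44, adjusted p = 0.979 under high stretch), and Lama1 had 0 to 5 counts per sample and was left out by the filter.

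Of 26 other basement membrane components, 21 were tested in each comparison. Under low stretch 2 rose and 7 fell (median log2 fold change -0.54), and under high stretch 3 rose and 5 fell (median -0.49). Over all genes 5.45% and 3.47% were called, with medians of 0.01 and -0.02. Among the genes that rose were Loxl2, which crosslinks collagen IV (0.91, edgeR adjusted p = 0.023 under low and 1.07, adjusted p = 0.0276 under high stretch), and Col4a3, a collagen IV chain of the mature glomerular membrane (1.00, adjusted p = 0.0495 and 2.88, adjusted p = 0.0124). Col4a3 was scarce, at 0.457 ± 0.129 CPM (SD, n = 6) under low stretch and 0.512 ± 0.0513 CPM (SD, n = 3) under high stretch, and its exons overlap those of C430014B12Rik on the opposite strand (mean 0.221 CPM), from which its reads cannot be told apart without strand. The matrix protein fibulin-2 gene Fbln2 rose under high stretch from 405 ± 78.9 to 1107 ± 146 CPM (SD, n = 3 each; 1.47, adjusted p = 0.0132). Under low stretch Fbln2 was at 0.81 and did not pass (edgeR adjusted p = 0.216). With run as a block, where 28.2% of all genes were called, it passed there too (edgeR adjusted p = 0.00115).

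Those that fell included the hemicentin gene Hmcn1 under low stretch, from 23.4 ± 2.16 CPM (SD, n = 3) to 5.70 ± 1.58 CPM (SD, n = 6; -2.04, edgeR adjusted p = 0.00222). Under high stretch Hmcn1 had 1.11, 1.04 and 2.61 CPM against 6.89, 4.31 and 24.9 CPM unstretched, without overlap. Its log2 fold change of -2.92 (SE 0.71) did not pass (edgeR adjusted p = 0.0678). Without unstretched replicate 3, the highest of its group, Hmcn1 passed (edgeR adjusted p = 0.0196). The Fraser complex gene Fras1 fell in both experiments (-1.33, adjusted p = 0.0419 and -1.52, adjusted p = 0.0142), as did Tinagl1 (-0.97, adjusted p = 0.0181 and -1.35, adjusted p = 0.0441). Netrin-4 (Ntn4), which binds laminin and disrupts its network, fell under high stretch (-1.33, adjusted p = 0.0208). To complete the counts, and named after their values were seen, Col4a5, Col18a1, Npnt and Ntn4 also fell under low stretch and Col4a6 and Npnt under high stretch. Col4a5 and Col18a1 under high stretch (-0.77 and -0.93, edgeR adjusted p = 0.0678 and 0.0749) kept their direction without passing. So did Col4a6 under low stretch (-0.67, adjusted p = 0.0965). By edgeR, no gene passed in the difference between the effects, in this list or among all 22015 genes tested. The lowest unadjusted p of the list was that of Col4a3, whose effects differed by 1.86 (SE 0.44, edgeR unadjusted p = 0.000654). Of all genes 2.48% had an unadjusted p under 0.05. The groups did not overlap for 12 of the 21 under low and 16 under high stretch, against 15.3% and 20.6% of all genes. With run as a block, where 28.2% of all genes were called, 3 rose and 13 fell under low stretch. Col4a6 was among these 13 (edgeR adjusted p = 0.000729). Without unstretched replicate 3 of experiment 2, where 7.77% of all genes were called, 3 rose and 9 fell of 20 tested under high stretch. Col4a5 and Col18a1 were among these 9 (edgeR adjusted p = 0.0442 and 0.00776).

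Of the receptors for laminin and other basement membrane proteins, 15 of 16 were tested, and 1 was called under low and 3 under high stretch, against 5.45% and 3.47% of all genes. The heparan sulphate proteoglycan syndecan-4 (Sdc4, -0.40, edgeR adjusted p = 0.0224) fell under low stretch and none rose. Under high stretch the collagen receptor chain Itga1 (-1.88, adjusted p = 0.0266) and dystroglycan (Dag1, -0.93, adjusted p = 0.0242) fell, and the hemidesmosome integrin chain Itgb4 rose (1.53, adjusted p = 0.0328) at a level of 0.357 ± 0.0288 against 0.126 ± 0.0195 CPM (SD, n = 3 each). Exons of Itgb4 overlap those of B230344G16Rik on the opposite strand, for which no level is held, and their reads cannot be told apart without strand. Itga1 and Dag1 were also lower under low stretch (-1.10 and -0.67, edgeR adjusted p = 0.0874 and 0.069) without passing. So was Sdc4 under high stretch (-0.67, adjusted p = 0.0655), and Itgb4 was at 0.21 under low stretch (adjusted p = 0.768). By edgeR, no gene passed in the difference between the effects, in this list or among all 22015 genes tested. The lowest unadjusted p of the list was that of Itgb4, whose effects differed by 1.30 (SE 0.52, edgeR unadjusted p = 0.023). The list medians were -0.15 under low and -0.09 under high stretch. With run as a block (28.2% of all genes called) 2 rose and 5 fell under low stretch, and without unstretched replicate 3 of experiment 2 (7.77% called) 3 rose and 4 fell under high stretch. Itga1 and Dag1 were among the 5 that fell under low stretch (edgeR adjusted p = 0.000228 and 0.000232). Sdc4 was among the 4 that fell under high stretch (edgeR adjusted p = 0.0294).

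Genes that build and edit heparan sulphate, the sugar chain carried by agrin and perlecan, had no common direction over the whole list. Of 22 tested out of 26, under low stretch the polymerase Ext1 (0.53, edgeR adjusted p = 0.00752) and the epimerase Glce (0.36, adjusted p = 0.0434) rose. The sulphotransferases Hs3st3a1 (-0.97, adjusted p = 0.0104), Hs6st2 (-0.73, adjusted p = 0.0324) and Hs6st1 (-0.47, adjusted p = 0.0293) fell. Exons of Hs3st3a1 overlap those of F930015N05Rik on the opposite strand, for which no level is held, and their reads cannot be told apart without strand. Hs3st3a1 was also the only one called by edgeR under high stretch (-1.58, adjusted p = 0.037). There the other 4 kept their direction without passing: Hs6st2 (-1.15, adjusted p = 0.102), Hs6st1 (-0.68, 0.0743), Ext1 (0.55, 0.122) and Glce (0.35, 0.833). Thus 5 of 22 were called under low and 1 of 22 under high stretch, against 5.45% and 3.47% of all genes, and the medians were 0.05 and 0.02. The groups did not overlap for 7 of the 22 under low and 10 under high stretch, against 15.3% and 20.6% of all genes. With DESeq2, which called 1403 of all 18524 genes under high stretch, 2 of the list rose and 4 fell there. With run as a block (28.2% of all genes called) 6 rose and 6 fell under low stretch, and without unstretched replicate 3 of experiment 2 (7.77% called) 3 rose and 2 fell under high stretch. Without that replicate Ext1 and Hs6st1 passed under high stretch (edgeR adjusted p = 0.0496 and 0.018). Hs6st2 and Glce did not (edgeR adjusted p = 0.0692 and 0.0966).

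Many calls on these list genes were lost when 1 sample was left out, as were many calls over all genes. Over all genes, 643 calls under high stretch became 90, 293 and 14 without high-stretch replicates 1, 2 and 3. They became 122 without unstretched replicate 1. Under low stretch 1181 calls became 220 without unstretched replicate 3, 378 without unstretched replicate 1 and 606 without low-stretch replicate 4. Of the 10 named under high stretch, each lost its call without high-stretch replicate 1 (adjusted p from 0.059 to 0.202) and without high-stretch replicate 3 (0.08 to 0.226), 9 lost it without unstretched replicate 1 (0.0749 to 0.188), 8 without high-stretch replicate 2 (0.0564 to 0.12), and Tinagl1 without unstretched replicate 2 (0.064). Of the 11 named under low stretch, Hmcn1 and Ext1 kept their calls in all 9 such fits, 9 lost theirs without unstretched replicate 3 (0.0703 to 0.233), 7 without unstretched replicate 1 (0.0569 to 0.156), 6 without low-stretch replicate 4 (0.0533 to 0.0916) and 4 each without unstretched replicate 2 or low-stretch replicates 1, 2 or 3 (0.0543 to 0.0924).

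**Figure D5:**
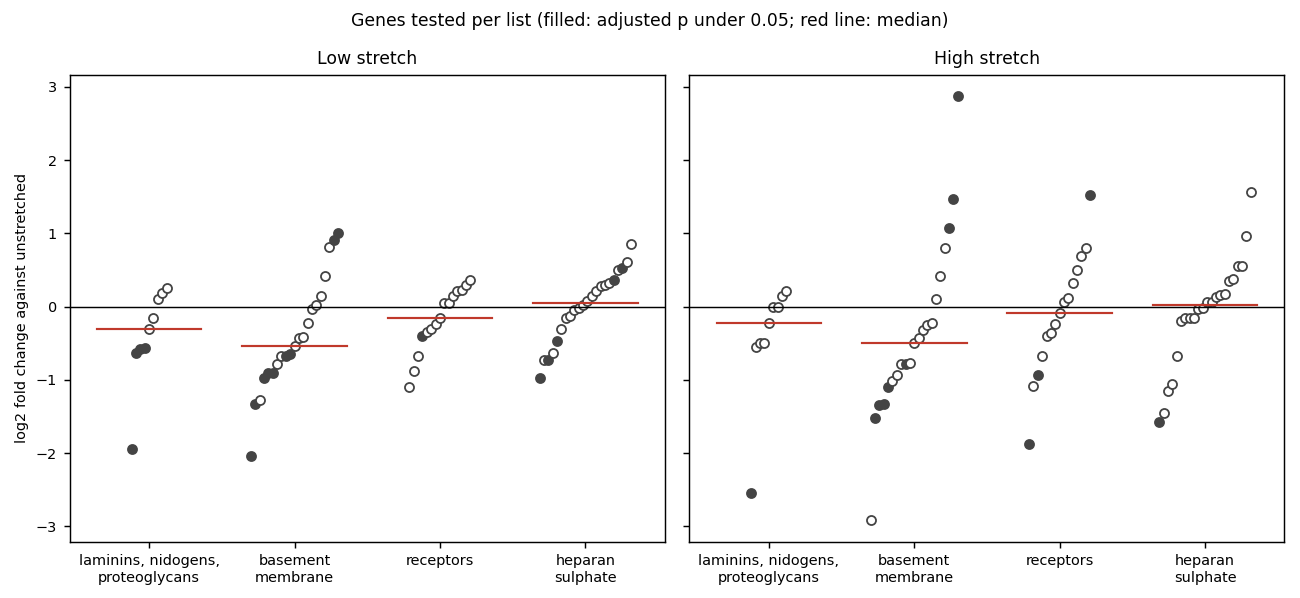
Log2 fold change of every gene tested per list under low stretch (left) and high stretch (right), ordered by value within a list, with called genes filled and the list median as a red line. The medians of the laminins, nidogens and proteoglycans (-0.31 and -0.23) and of the other basement membrane components (-0.54 and -0.49) lie below 0, and those of the receptors and heparan sulphate genes lie nearer to 0.

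Likeness of pattern was measured as the root mean square difference in log2 CPM deviations from the experiment mean over the 15 samples, among 12939 genes with a mean of at least 1 CPM. Lama5 and Hspg2 were each other's nearest gene (0.089), against a median difference of 0.408 from Lama5 and 0.435 from Hspg2 over all genes, and the next nearest to both was Pdgfrb, the platelet-derived growth factor receptor beta gene (0.091 from Lama5). Lamc1 was nearest to the adaptor gene Gab1 (0.084) and to Zhx3 (0.085). The measure is not scaled to the size of a gene's changes, which were larger in Nid2, so its distances are not comparable with those of the other genes. The genes nearest to Nid2 were the complement protease gene C1s1 (0.298) and the aminopeptidase A gene Enpep (0.309), against a median of 1.144. C1s1 fell in both experiments (-2.05, edgeR adjusted p = 0.00118 and -3.00, adjusted p = 0.00452), and so did Enpep (-1.42, adjusted p = 0.00628 and -2.40, adjusted p = 0.0161).

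Some cell type markers moved with these genes. Under low stretch Pdgfrb, a mesangial marker (-0.56, edgeR adjusted p = 0.0199), Ehd3, a glomerular endothelial marker (adjusted p = 0.0147), and Lrp2, a tubular marker (adjusted p = 0.0227), fell together with Lama5, Lamc1, Nid2 and Hspg2. The podocyte marker Plce1 fell under low (adjusted p = 0.00314) and high stretch (adjusted p = 0.0262), and Wt1 fell under high stretch (adjusted p = 0.0311). No other marker passed. Some had higher means under both stretches: the podocyte markers Thsd7a (9.67 against 4.37 and 5.52 against 2.31 CPM) and Actn4 (815 against 664 and 1789 against 1351 CPM). So did the mesangial marker Acta2 (2808 against 1536 and 8974 against 4626 CPM) and the tubular marker Cubn (6.06 against 5.0 and 3.32 against 2.51 CPM). The endothelial sum was 27.1 to 35.8 CPM under low stretch against 44.9 to 47.0 CPM and 42.8 to 54.9 CPM under high stretch against 70.4 to 82.8 CPM, while Cdh5, Kdr and Emcn were at or near 0 in all groups. The tubular sum was 480 to 764 CPM against 932 to 1094 CPM and 252 to 429 CPM against 319 to 671 CPM, with Umod, Slc34a1 and Aqp2 at or near 0. The mesangial or fibroblast sum was 1518 to 3950 CPM against 1270 to 2010 CPM and 6546 to 10501 CPM against 2561 to 7237 CPM, and the podocyte sum 1659 to 1933 CPM against 1544 to 1690 CPM and 2625 to 3270 CPM against 2104 to 2972 CPM. The part of these cell markers in the results was not tested.

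Alternative splicing under stretch is the stated interest of the series, so the share of each transcript in its gene was tested as well. Of these genes, 14 transcripts of Lamb1, Lamb2, Nid2, Agrn and Hspg2 could be tested, and limma called 0 of them under low and 0 under high stretch (lowest adjusted p = 0.52 and 0.544, with 0 and 1 at an unadjusted p under 0.05), against 0.0144% of 27720 transcripts under low stretch and 0.0% of 23408 under high stretch. The Agrn transcript ENSMUST00000180572, which begins at the RefSeq start whose promoter is shown above, made up 41.5% ± 0.807 (SD, n = 6) of Agrn TPM under low stretch against 41.7% ± 1.11 (SD, n = 3), and 46.0% ± 3.70 under high stretch against 48.7% ± 3.85 (SD, n = 3 each). The coding transcript ENSMUST00000105574, with another start, took 35.3% against 35.6% and 36.1% against 38.1%. These 2 coding forms thus held the largest shares of Agrn in all groups. They were singled out for their starts after their values were seen. The largest change of fraction in Agrn was in the retained-intron transcript ENSMUST00000154494, with 19.3% against 18.3% under low (limma adjusted p = 0.815) and 16.1% against 11.4% under high stretch (adjusted p = 0.659).

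The largest change of fraction in Hspg2 under low stretch was in ENSMUST00000030547 (55.1% ± 1.48, SD, n = 6, against 53.5% ± 0.564, SD, n = 3, limma adjusted p = 0.713). ENSMUST00000171332, which begins at the RefSeq start shown above for Hspg2, changed most under high stretch (37.4% ± 2.12 against 40.4% ± 2.26, SD, n = 3 each, adjusted p = 0.779). In Lamb1 the main transcript ENSMUST00000002979, which begins at its RefSeq start, held 84.5% under low stretch against 84.3% and 86.5% under high stretch against 89.0% (its largest change there, adjusted p = 0.73). The other coding form, ENSMUST00000169088, changed most under low stretch, at 11.4% against 11.7% (adjusted p = 0.95). In both genes the same coding form was the larger in all 4 groups. In Nid2 the short retained-intron transcript ENSMUST00000224057 changed most, 17.0% ± 5.30 (SD, n = 6) against 17.6% ± 4.15 (SD, n = 3) under low stretch (adjusted p = 0.979) and 6.35% ± 6.52 against 11.6% ± 0.997 (SD, n = 3 each) under high stretch (adjusted p = 0.768). Lamb2 had its largest change in the 332-base transcript ENSMUST00000194147, listed at 0 in at least 1 stretched sample of each experiment (0.0% to 14.9% against 7.72% to 13.5% under low, adjusted p = 0.824, and 0.0% to 16.3% against 9.24% to 23.7% under high stretch, adjusted p = 0.625).

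Between the unstretched groups, Hspg2, Lamb2 and Agrn were higher in experiment 2 (log2 fold change 0.60, 0.50 and 0.55, SE 0.18, 0.18 and 0.21, edgeR adjusted p = 0.0199, 0.0342 and 0.0469). That is 3 of 10 genes, against 29.7% of 20707 genes called higher and 62.5% called in either direction, so the share is that of the background. The other 7 did not pass, among them Nid2 (0.14, SE 0.21, adjusted p = 0.573). A correction for GC content ended the 3 calls and turned their direction (-0.29, -0.32 and -0.21), and all 3 calls were also lost without unstretched replicate 1, 2 or 3 of experiment 1 or replicate 1 of experiment 2. Without replicate 2 of experiment 2, 1 gene passed, and without replicate 3, 4 genes, Lama5 included.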

How the data were processed

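The authors deposited gene counts (whole numbers per Ensembl gene) and transcript TPM values for 15 poly(A) samples. The submitters' processing notes name STAR 2.7.5c, Subread 2.0.0 with featureCounts, Salmon 1.9.0, DESeq2 1.38.3 and build mm39, without roles. The annotation and the strand setting of the counting are not given in the sources used here. GENCODE M21, an annotation of another build, gave symbols, chromosomes, exon overlaps, lengths and GC content (52135 genes and 137189 transcripts matched). Groups came from the titles.

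The deposited counts went into edgeR 4.0.16 (R 4.3.3) with the following settings: TMM scaling, filterByExpr, quasi-likelihood F test, Benjamini-Hochberg adjustment over all genes at 0.05. The fit of each stretched group held its own experiment's unstretched samples, the test of the difference held all 15, and the unstretched groups had their own fit. A standard error is the log2 fold change divided by the square root of F. Transcript usage was tested with limma 3.58.1 on log2 odds, that is, each transcript's TPM over what its gene's remaining transcripts sum to, 0.1 being added above and below, for genes of at least 1 TPM and mean fractions from 0.05 to 0.95. The tests were also run on simulated data drawn independently for each sample, so the likeness of samples within runs was not simulated. Alternatives were DESeq2 1.42.0, RLE factors, other filters and pseudocounts, GC and length corrections (lowess, span 0.3), all samples in one fit, blocks on replicate number or run, and each sample left out.

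The 10 genes, the lists and the tests were chosen with earlier results of these data known. Named were all 10, the other laminin chains (1 is not reported here), per other list the largest called rises and falls, per called gene the 2 nearest patterns, and per gene the tested transcript with the largest change of fraction. Counting error is the only error that the limit of 3 counts covers.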

Additional observations from a re-analysis of the deposited data

How the results depend on the processing

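Of the 10 genes, the number called was 4 under low stretch, and 1 (Nid2) with a replicate block on the numbers 1 to 3 of the titles, a fit that leaves out low-stretch replicates 4 to 6, which share no number with an unstretched sample. The number called under high stretch was 1, and 2 with all 15 samples in one fit or with a replicate block and GC correction (Lamc1 added). Leaving out 1 sample gave 1 to 5 calls under low and 0 to 1 under high stretch. Over all genes, low stretch gave 1181 calls, and 2837 with DESeq2, 640 with all 15 samples, 490 with the replicate block, 6106 with a run block, 6584 with the run block and GC correction, and 220 to 1630 without 1 sample. High stretch gave 643, and 1403 with DESeq2, 1050 without a filter, 414 with a mean count of at least 100, 1539 with GC correction, 1488 with all 15 samples, 1546 with the replicate block, 2323 with that block and GC correction, and 14 to 1421 without 1 sample. Between the unstretched groups 3 of the 10 were called, and 1 with a mean count of at least 100, 0 with GC correction, 7 with length correction and 0 to 4 without 1 sample. Length correction moved the median of all genes in that comparison from -0.072 to 0.140. The cause of these changes was not tested. No alternative called a gene of the 10 in the difference between effects, or a transcript. Same-numbered samples did not all deviate together (correlations -0.44 to 0.365 over 3 pairs in experiment 1 and -0.163 to 0.45 in experiment 2). In experiment 2, where the numbers are also the runs, their mean was 0.176 over 3 pairs, against -0.095 over 6 other pairs. So few pairs cannot show that there is no pairing. The labels state none, and the numbers are not taken as one. Estimates near 0 changed sign without a call. Lama2 under low stretch went to -0.04 with the replicate block, Lamb1 under high stretch to 0.00 with DESeq2 and RLE factors and to 0.02 without a filter or with length correction, Nid1 under high stretch to 0.01 without a filter and 0.04 with the replicate block, and Lamc3 under high stretch to 0.06 with GC correction, 0.07 with the replicate block and 0.12 with both. Leaving out 1 sample gave -0.09 to 0.36 for Lama2 and -0.56 to 0.36 for Lamc3 under low stretch, and under high stretch -0.30 to 0.50 for Lama2, -0.10 to 0.15 for Lamb1, -0.39 to 0.25 for Nid1 and -0.45 to 0.21 for Lamc3. Low counts limit Lama1, Lama2, Lama4 and Nid1, which had at most 5, 34, 16 and 98 counts in a sample.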
